A study of Mus musculus with 12 samples.

Results

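The 10 mouse genes described here, U90926, Car6, Als2cl, Atp2a3, Gpr141, Sspo, Dpysl3, Esyt1, Ghitm and Fbln5, were chosen by their measured counts, for very large or very even rises in SCC7 carcinoma cells kept in medium of macrophages exposed to tumour cell medium. They are 10 of the 55487 genes in the count table. Because their values in that medium chose them, those values are given as a description with no test, and tests of these genes are confined to the other media. SCC7 is a mouse squamous cell carcinoma line labelled wild type. The cells were sequenced after 24 h in the conditioned medium (CM) of bone marrow-derived macrophages (BMDM). The macrophages themselves had been treated for 24 h, with 75% SCC7 conditioned medium for TAM CM (TAM, tumour-associated macrophage), with 20 ng/ml interferon-gamma for M1 CM, with 20 ng/ml interleukin-4 for M2 CM, or with plain DMEM for M0 CM. Each medium had 3 libraries, 12 in all. The sources used here do not give whether SCC7 medium or cytokines remained in the collected medium, so their effect and that of macrophage products cannot be told apart, nor do they give the age or strain of the mice.

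Cells short of amino acids or with unfolded protein in the endoplasmic reticulum (ER) slow translation and make more of the transcription factors ATF4 and CHOP (gene Ddit3), which switch on genes of amino acid supply, redox balance and protein folding. This programme is called the integrated stress response. Of the 10 genes, Car6 has a described link to it, since a stress-inducible form of Car6 that depends on CHOP is known from mouse cells. The others fall into loose groups by role. U90926 is a mouse transcript known from activated macrophages, Car6 encodes a secreted carbonic anhydrase, and Sspo and Fbln5 encode extracellular proteins. Atp2a3, Esyt1 and Ghitm encode membrane proteins of the ER and mitochondria. Als2cl, Gpr141 and Dpysl3 encode a RAB5-binding protein, an orphan receptor of leukocytes and a cytoskeletal protein.

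Library totals ran from 18996937 to 22596630 counts, so that 1 CPM (counts scaled to library size with TMM factors) is worth 18.3 to 23.5 counts in a library. The biological coefficient of variation was 3.65%. No replicate pair held identical counts, and all pairs differed by more than sampling noise (chi-square per degree of freedom 1.97 to 4.82). Whether the 3 libraries of a medium came from separate cultures is not stated in the labels, and p-values measure only the spread between them, which may be technical. In such bulk samples a lower level in fewer cells and less RNA per cell cannot be told apart. Of 10 squamous epithelial markers, Krt8, Krt18 and Itga6 carried nearly all of the summed level, while Epcam had no counts and Krt5, Krt14 and Cdh1 had at most 5 counts in any medium. That sum was 145 to 154 CPM in TAM CM, 204 to 208 in M1 CM, 703 to 785 in M2 CM and 399.5 to 431 in M0 CM. The sum of 10 fibroblast markers was 1152 to 1209 CPM in TAM CM, 1446 to 1544 in M1 CM, 1501 to 1530 in M2 CM and 2515 to 2662 in M0 CM. Within it Col1a2 averaged 554 CPM in TAM CM and 1475 in M0 CM, but Pdgfra 319.7 and 236. The part of these shifts in the results below was not tested. The M2 CM library numbered 3 has a melanoma cell type label, and was kept. Melanocyte markers, nearly all Mitf, summed to 5.57 to 7.34 CPM over the M2 CM libraries and 7.21 to 9.31 in M0 CM.

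All 10 genes passed the expression filter, but Als2cl, Gpr141 and Sspo would not have passed it without the TAM CM libraries. They lie on 10 different chromosomes. In all 10 the TAM CM libraries lay above all libraries of M1 CM, of M2 CM and of M0 CM. That pattern is what the genes were chosen for, and it held for 34.1%, 35.9% and 36.7% of the 14509 genes tested against those media. Over the 9 genes with counts in M0 CM, the ratio of TAM CM to M0 CM ran from 4.63 for Fbln5 to 1763 for U90926. By fitted log2 ratio the ranks of the 10 genes among all 14509 ran from 2 for Als2cl to 355 for Fbln5, so they are not the 10 largest rises.

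The sequences below are the RefSeq promoter windows (GRCm38.p6, 250 bases before to 50 bases after a transcription start) of the gene with the largest measured ratio, of the gene with the described CHOP link, and of both RefSeq starts of Fbln5, the gene that moved in opposite directions in M1 CM and M2 CM. Capitals mark the letters TGATGNAAN, the composite element bound by C/EBP and ATF factors, where N is any base. Whether the Car6 window lies at the start of its stress-inducible form was not determined.

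U90926 promoter, minus strand, chr5:92215359-92215658: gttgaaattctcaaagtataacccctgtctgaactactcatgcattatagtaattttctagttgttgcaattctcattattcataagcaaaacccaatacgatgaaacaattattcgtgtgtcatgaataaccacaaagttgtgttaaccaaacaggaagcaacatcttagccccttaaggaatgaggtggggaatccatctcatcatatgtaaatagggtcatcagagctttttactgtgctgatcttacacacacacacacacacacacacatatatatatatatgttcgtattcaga
Car6 promoter, minus strand, chr4:150201086-150201385: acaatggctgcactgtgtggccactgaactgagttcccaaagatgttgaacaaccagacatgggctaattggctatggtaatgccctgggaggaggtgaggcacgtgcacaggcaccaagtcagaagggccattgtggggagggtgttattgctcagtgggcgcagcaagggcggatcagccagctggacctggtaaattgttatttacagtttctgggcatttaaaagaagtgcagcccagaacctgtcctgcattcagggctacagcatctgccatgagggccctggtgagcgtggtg
Fbln5 promoter, upstream start, minus strand, chr12:101819070-101819369: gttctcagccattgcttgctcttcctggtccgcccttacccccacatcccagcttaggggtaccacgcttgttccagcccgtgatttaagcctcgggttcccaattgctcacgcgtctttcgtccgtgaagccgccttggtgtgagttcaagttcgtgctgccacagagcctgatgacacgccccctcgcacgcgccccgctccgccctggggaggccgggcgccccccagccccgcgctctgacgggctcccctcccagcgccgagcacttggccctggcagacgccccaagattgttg
Fbln5 promoter, downstream start, minus strand, chr12:101818435-101818734: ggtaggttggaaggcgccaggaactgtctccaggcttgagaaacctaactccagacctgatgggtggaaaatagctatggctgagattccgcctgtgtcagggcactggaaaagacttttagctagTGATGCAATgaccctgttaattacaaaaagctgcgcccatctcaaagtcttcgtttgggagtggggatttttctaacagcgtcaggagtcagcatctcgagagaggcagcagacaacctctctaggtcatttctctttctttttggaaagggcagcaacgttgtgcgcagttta

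RefSeq gave 13 such windows for 9 of the 10 genes. On both strands, the composite element was found in 1 of the 13, the downstream window of Fbln5, where its first base lies at position -124 from the start. It was found in 3.95% of all 32851 promoter windows. The AP-1 element TGANTCA (7.81% of all windows), the cAMP response element TGACGTCA (1.79%) and the STAT element TTCNNNGAA (8.30%) were in none of the 13. The short unfolded protein response motif CCACG was in 5 windows of 4 genes, Als2cl, Car6, Fbln5 and Ghitm, and in 32.8% of all windows. The Ghitm windows overlap each other. No match of one motif overlapped one of another. A match describes the letters of these windows and is no evidence of binding.

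U90926 had the largest ratio of the genes with counts in M0 CM. The gene (ENSMUSG00000029409, chromosome 5, 92209893 to 92215408 in mm10, minus strand) is annotated as protein-coding in GENCODE M21 and as a long non-coding RNA in RefSeq. It stood at 274, 285 and 260.5 CPM in TAM CM, at 9.76, 11.5 and 11.3 in M1 CM, at 0.139, 0.201 and 0.143 in M2 CM and at 0.213, 0.0497 and 0.193 in M0 CM. The 3 TAM CM libraries were far above the rest, M1 CM formed a level of its own, and M2 CM and M0 CM overlapped. The ratio of counts between TAM CM and M0 CM was 1763, with an exact 95% binomial interval of 958 to 3677, since M0 CM had 10 counts in all. Such intervals cover counting error only.

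Car6 (ENSMUSG00000028972, chromosome 4, 150187015 to 150201332, minus strand), the secreted carbonic anhydrase of saliva, which hydrates carbon dioxide, had the same order of media. Its levels were 131, 130.4 and 122 CPM in TAM CM, 7.65, 11.2 and 11.15 in M1 CM, 0.604, 0.1505 and 0.523 in M2 CM and 0.213, 0.199 and 0.0964 in M0 CM. The first M1 CM library was the low one of its group, and the second M2 CM library lay within the M0 CM range while the other two lay above it. The ratio between TAM CM and M0 CM was 747 (exact 95% binomial interval 417 to 1497). Counts per gene do not separate the secreted and the stress-inducible form of Car6.

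**Figure D1:**
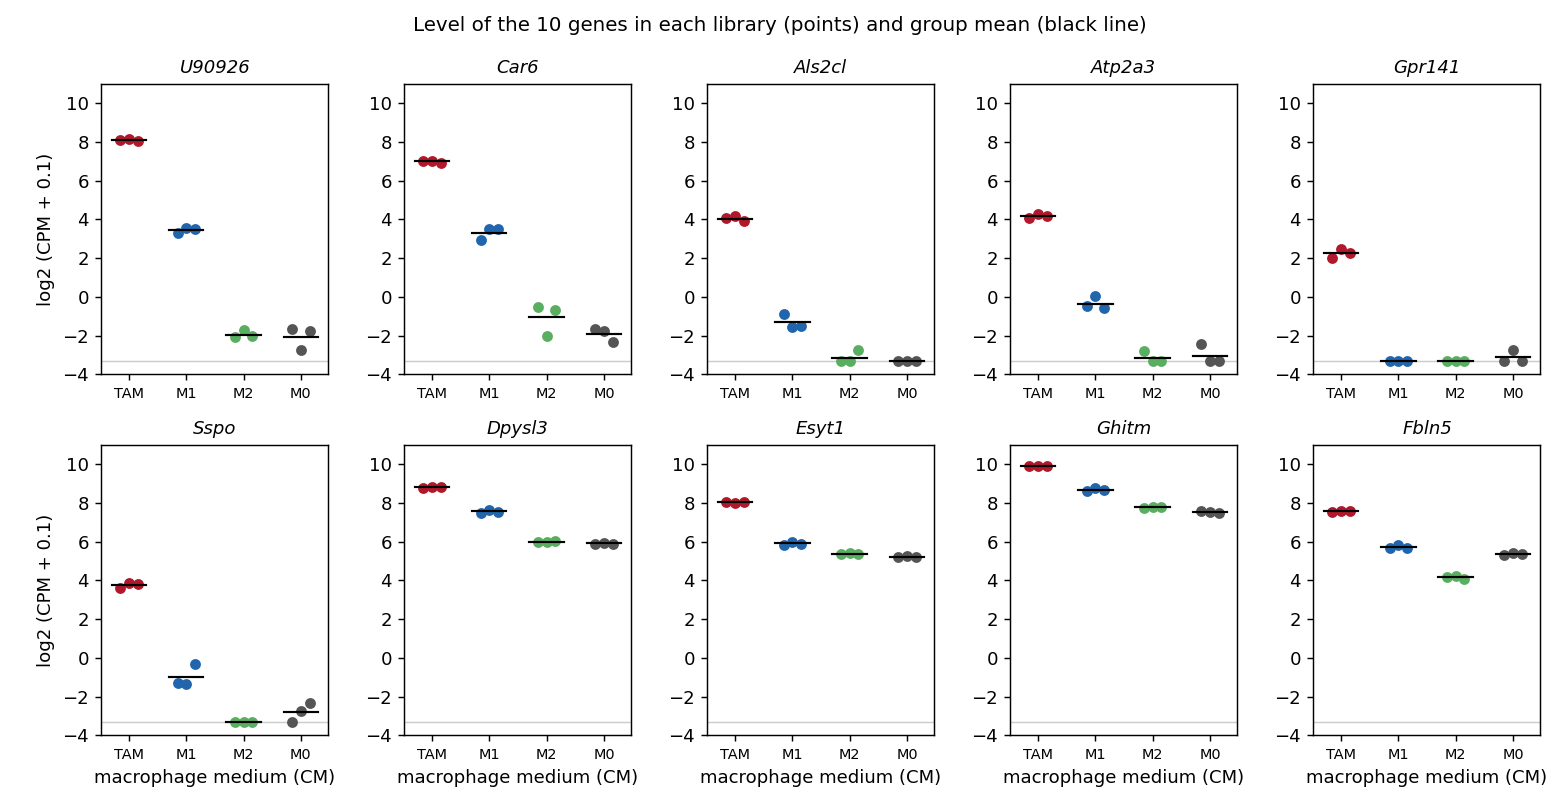
Level of each of the 10 genes in log2 (CPM + 0.1) on the vertical axis, by medium (TAM, M1, M2, M0) on the horizontal axis. Each point is a library, black lines are means of the 3 log2 values, and the grey line marks 0 CPM. The TAM CM points are the highest in every panel, M1 CM comes next in every panel except Gpr141, which had no M1 CM counts, and the M2 CM points of Fbln5 lie below M0 CM.

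Als2cl, Atp2a3, Gpr141 and Sspo were almost silent outside TAM CM, and their counts are given in place of CPM. Als2cl (ENSMUSG00000044037, chromosome 9, 110879870 to 110900530, plus strand), which encodes the RAB5-binding protein, had 305, 390 and 293 counts in TAM CM, 10, 5 and 5 in M1 CM, 0, 0 and 1 in M2 CM and none in M0 CM. Taking 3 counts as the floor of M0 CM as a whole, it was at least 353-fold higher in TAM CM. Atp2a3 (ENSMUSG00000020788, chromosome 11, 72961169 to 72993044, plus strand) encodes SERCA3, a pump that moves calcium into the ER. It had 306, 431 and 354 counts in TAM CM, 14, 19 and 11 in M1 CM, 1, 0 and 0 in M2 CM and 2, 0 and 0 in M0 CM. In both genes M1 CM lay between TAM CM and the overlapping M2 CM and M0 CM. The Atp2a3 ratio of 584.5 between TAM CM and M0 CM rests on 2 M0 CM counts of 1 library, without which M0 CM has none, and has an exact 95% binomial interval of 161 to 4832.

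Sspo (ENSMUSG00000029797, chromosome 6, 48448229 to 48501250, plus strand) encodes SCO-spondin, a very large secreted protein known from the fibre that runs through the ventricles of the brain. It had 220, 315 and 271 counts in TAM CM, 7, 6 and 14 in M1 CM, none in M2 CM and 0, 1 and 2 in M0 CM. Its M1 CM libraries lay above the few counts of M0 CM. Gpr141 (ENSMUSG00000053101, chromosome 13, 19749682 to 19824257, minus strand), an orphan G protein-coupled receptor, had 72, 119 and 93 counts in TAM CM, none in M1 CM, none in M2 CM and 0, 1 and 0 in M0 CM. Of the 10 genes Gpr141 alone had no counts in M1 CM, which allows a level of up to 0.0479 CPM there. The ratios between TAM CM and M0 CM were 288 for Sspo (exact 95% binomial interval 98.15 to 1399) and 304 for Gpr141 (54.2 to 12060). The only M0 CM count of Gpr141 is in library 2, without which M0 CM has none. The fitted log2 ratio of Sspo, 7.99, was 8.85 without M0 CM library 3 and 7.39 without M0 CM library 1.

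U90926 and Gpr141 are known from macrophages, so macrophage markers were read beside them. Over 15 markers the summed level was 41.4 to 50.9 CPM in TAM CM, 63.3 to 66.3 in M1 CM, 22.6 to 25.05 in M2 CM and 23.1 to 24.0 in M0 CM, with counts for 10 of 15 markers in each medium. Cd14 made up 40.9 of the TAM CM mean, and Cd14 and Mpeg1 gave 26.1 and 27.5 CPM of the M1 CM mean. C1qa, C1qb, C1qc and Tyrobp had no counts in any library. Csf1r, the macrophage growth factor receptor, had 8 counts in TAM CM, 33 with M1 CM, 23 with M2 CM and 20 with M0 CM. Other macrophage markers differed in either direction between TAM CM and M0 CM. Lyz2 was higher, at 1.31 CPM in TAM CM, 0.422 with M1 CM, 0.416 with M2 CM and 0.831 with M0 CM. Cd68 was lower, at 2.89 CPM in TAM CM and 3.89 in M0 CM. Gpr141 had 284 counts in TAM CM and 1 in M0 CM. The part of macrophage RNA in these levels was not tested.

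Dpysl3, Esyt1, Ghitm and Fbln5 were expressed in every medium, and their libraries lay close together. Dpysl3 (ENSMUSG00000024501, chromosome 18, 43320984 to 43438286, minus strand) encodes CRMP4, a cytoskeleton-binding protein of growing nerve processes. It stood at 433, 454 and 450.2 CPM in TAM CM, at 179.9, 199 and 185 in M1 CM, at 62.05, 64.0 and 64.6 in M2 CM and at 59.6, 61.5 and 58.55 in M0 CM. No library of one medium overlapped those of another, though M2 CM and M0 CM nearly touched.

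Esyt1 (ENSMUSG00000025366, chromosome 10, 128509965 to 128525871, minus strand) encodes extended synaptotagmin 1, which tethers the ER to the plasma membrane and moves lipid between them. Its levels were 263, 256 and 262 CPM in TAM CM, 56.65, 63.7 and 59.6 in M1 CM, 41.5, 41.8 and 41.0 in M2 CM and 36.7, 37.7 and 37.0 in M0 CM. Ghitm (ENSMUSG00000041028, chromosome 14, 37120092 to 37135272, minus strand) encodes TMBIM5 of the inner mitochondrial membrane. It stood at 951, 944 and 954 CPM in TAM CM, at 388, 430.1 and 400.2 in M1 CM, at 213, 219 and 218 in M2 CM and at 190.1, 188 and 177.5 in M0 CM. Both genes came in the order TAM CM, M1 CM, M2 CM, M0 CM with no overlap between neighbours, and the coefficient of variation in TAM CM was 1.55% for Esyt1 and 0.528% for Ghitm.

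Fbln5 (ENSMUSG00000021186, chromosome 12, 101746565 to 101819055, minus strand) encodes fibulin-5, which helps to assemble elastic fibres. It was at 186, 191 and 190.5 CPM in TAM CM, at 50.3, 57.5 and 50.85 in M1 CM, at 17.7, 18.9 and 16.6 in M2 CM and at 39.7, 42.4 and 40.9 in M0 CM. Here M2 CM came last, below M0 CM, again with no overlap. The ratios of TAM CM to M0 CM were 7.46 for Dpysl3, 7.01 for Esyt1, 5.12 for Ghitm and 4.63 for Fbln5. Against M2 CM, the Fbln5 ratio was 10.7. Against M1 CM the ratios of the 10 genes ran from 2.34 for Ghitm to at least 98.6 for Gpr141, with 25.3 for U90926 and 12.9 for Car6.

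Levels can be compared between genes only per length, and are given here as CPM per kilobase of exon (RPKM). In TAM CM, U90926, with 800 bases of exon, had the highest level of the 10 at 342 ± 15.5 RPKM (SD, n = 3), ahead of Ghitm at 253 ± 1.33. Car6 was at 70.3 ± 2.83, Dpysl3 at 67.45 ± 1.75, Esyt1 at 35.8 ± 0.554 and Fbln5 at 27.4 ± 0.4125. Atp2a3, Als2cl, Sspo and Gpr141 stayed low even in TAM CM, at 3.42 ± 0.262, 2.79 ± 0.232, 0.841 ± 0.0744 and 0.784 ± 0.121 RPKM. In M0 CM the order was led by Ghitm at 49.3 ± 1.78 RPKM, and U90926 was at 0.1896 ± 0.111.

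The comparisons among the other 3 media ask whether these genes also moved without tumour cell medium. They were tested with edgeR's quasi-likelihood test, adjusted by Benjamini-Hochberg over all genes, at an adjusted p of 0.05. In M1 CM against M0 CM, the fit over all 12 libraries called 9 of the 10 genes higher and 0 lower, beside 27.7% of all genes higher and 25.6% lower. That count is a description, because Als2cl, Gpr141 and Sspo were in the test only through the TAM CM libraries that chose them, and their p-values are left out here. A fit of the 2 media alone kept 7 genes and called all 7 higher. However, U90926, Car6 and Atp2a3 did not pass the filter in M2 CM and M0 CM alone and so passed it through M1 CM. Their p-values are left out too. The 4 genes expressed in every medium passed that filter without M1 CM and without TAM CM. The M0 CM libraries were also part of the contrast that chose the genes. U90926 reached 10.9 ± 0.955 CPM in M1 CM, against 0.152 ± 0.0889 in M0 CM, a log2 fold change of 6.07 (SE 0.21). Car6 was at 10.002 ± 2.04 CPM in M1 CM and 0.169 ± 0.0635 in M0 CM, a log2 fold change of 5.81 (SE 0.29). The M0 CM means rest on 10 and 11 counts, and the ratios of counts were 69.7 (exact 95% binomial interval 37.65 to 146) and 58.1 (32.2 to 117).

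Atp2a3 was also higher in M1 CM, with a ratio of counts of 22.6 that rests on the same 2 M0 CM counts (exact 95% binomial interval 5.91 to 193). Als2cl, with 20 counts in M1 CM and 0 in M0 CM, was at least 6.86-fold higher by the same floor. Sspo had 27 counts in M1 CM and 3 in M0 CM, a ratio of 9.26 (exact 95% binomial interval 2.85 to 47.7). Of the 4 genes expressed in every medium, Dpysl3 rose most, by a log2 fold change of 1.65 (SE 0.04, edgeR adjusted p = 1.19e-36). Ghitm rose by 1.13 (SE 0.03), Esyt1 by 0.69 (SE 0.05) and Fbln5 by 0.37 (SE 0.05) on the log2 scale, with edgeR adjusted p of 4.07e-32, 4.95e-18 and 2.59e-08. Over all genes the median absolute log2 fold change was 0.25. Gpr141, with 0 counts in M1 CM and 1 in M0 CM, could not show a difference at this depth.

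In M2 CM against M0 CM, 2 of the 10 genes were higher and 1 was lower, shares near the 21.0% and 18.5% of all genes, so the count is no result about these genes. A fit of these 2 media alone kept 4 genes, Dpysl3, Esyt1, Ghitm and Fbln5, and called 3, 2 of them higher. The other genes did not pass the filter in these 2 media. Fbln5 fell, to 17.7 ± 1.11 CPM in M2 CM against 41.0 ± 1.33 in M0 CM, a log2 fold change of -1.21 (SE 0.06, edgeR adjusted p = 2.17e-22). Ghitm rose by 0.23 (SE 0.03, edgeR adjusted p = 4.90e-07) and Esyt1 by 0.16 (SE 0.05, edgeR adjusted p = 0.00751) on the log2 scale. The Esyt1 call was lost with library sizes in place of TMM scaling (log2 fold change 0.10, edgeR adjusted p = 0.0879). Dpysl3 differed by 0.09 (SE 0.04) and did not pass (edgeR adjusted p = 0.105). Car6, with 27 counts in M2 CM and 11 in M0 CM, was not called either. It was in the test only through M1 CM and TAM CM, where it is high, so its p-values are left out. Over 11 alternatives its call depended on the setting. It was called without the M2 CM library numbered 2, with no filter on low counts and in DESeq2. U90926 had 10 counts in each of the 2 media.

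The comparison of M2 CM with M1 CM leaves out TAM CM, but both media were references for the rise that chose the genes. The filter and the spread were also taken over all 12 libraries. In that fit 9 of the 10 genes were lower in M2 CM and 0 were higher, beside 28.4% and 27.8% of all genes. A fit of those 2 media alone kept 7 genes and called all 7 lower, with Als2cl, Gpr141 and Sspo not passing the filter. U90926, Car6 and Atp2a3 passed that filter through M1 CM, so a lower level in M2 CM was favoured in advance. Their p-values are left out. U90926 had a log2 fold change of -6.03 (SE 0.21) and Car6 of -4.51 (SE 0.24). Fbln5 and Dpysl3 differed alike, with -1.58 (SE 0.06) and -1.56 (SE 0.04), and Ghitm and Esyt1 less, with -0.91 (SE 0.03) and -0.53 (SE 0.05), the 4 edgeR adjusted p running from 1.00e-35 for Dpysl3 to 2.88e-14 for Esyt1. Atp2a3 had 1 count in M2 CM and 44 in M1 CM. Als2cl had 1 and 20 counts and Sspo 0 and 27, all given with no test. Without the M2 CM library that has the melanoma label, the number called was again 9. Gpr141 had no counts in either medium.

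**Figure D2:**
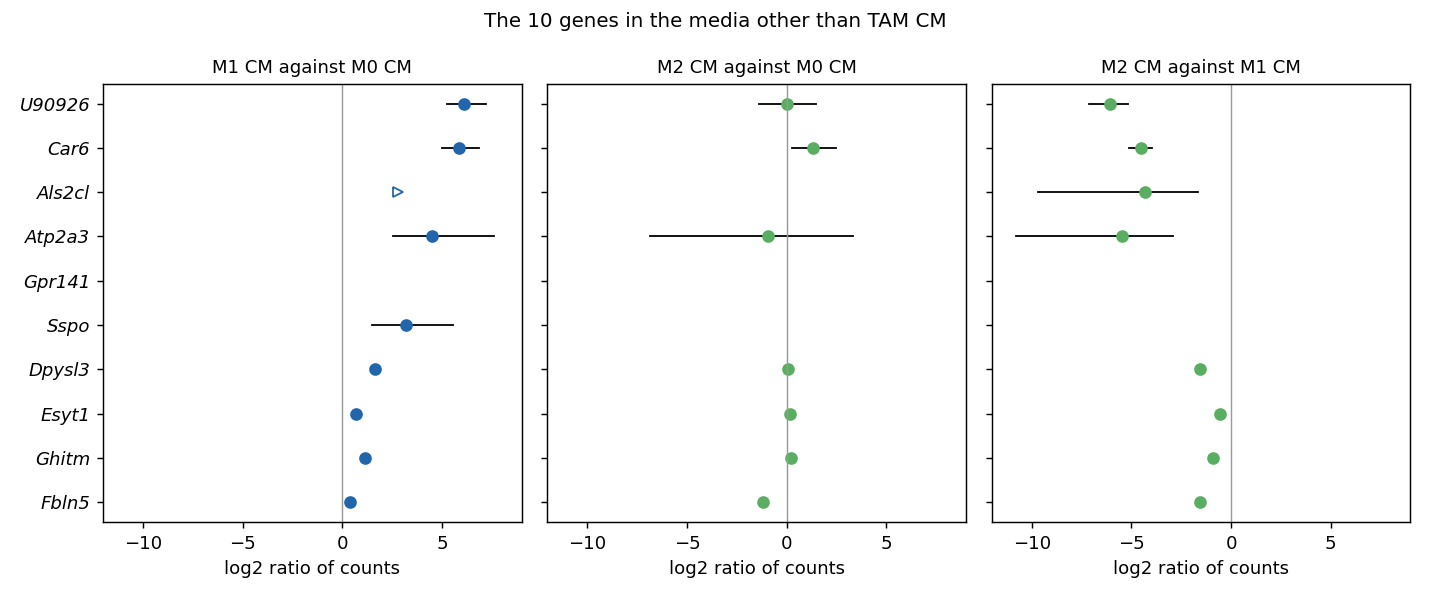
Log2 ratio of counts, scaled to library size, for the 10 genes (rows) in M1 CM against M0 CM, M2 CM against M0 CM and M2 CM against M1 CM. Points are ratios over the 3 libraries of each medium and bars are exact 95% binomial intervals, narrower than the point for the abundant genes. The open triangle is a lower bound for Als2cl, and ratios with 0 counts on one side are otherwise left out. The M1 CM ratios all lie right of 0, and in M2 CM against M0 CM the point of Fbln5 lies left of 0.

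Close relatives of the 10 genes moved in both directions. The lists of relatives and pathway genes leave out the 10 genes, and TAM CM was tested against M0 CM, where 35.1% of all genes were higher and 34.9% lower. Atp2a2, the SERCA pump that most cells use, was higher, at 677 ± 10.7 CPM in TAM CM against 322 ± 3.81 in M0 CM (log2 fold change 1.07, SE 0.03, edgeR adjusted p = 1.03e-33). Per length it still exceeded Atp2a3 in TAM CM, at 111 ± 1.76 RPKM against 3.42 ± 0.262 for Atp2a3. Of 4 tested calcium pump genes 3 were higher and 1 lower. The ER calcium release and entry list had 4 higher and 5 lower of 10 tested (2 and 5 with library sizes alone), with Itpr2 at 59.1 ± 1.90 CPM in TAM CM against 22.5 ± 0.683 in M0 CM, and the entry sensor Stim1 at 23.9 ± 0.887 against 47.4 ± 1.81. The mitochondrial calcium list had 7 higher and 6 lower of 14.

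Esyt2, the nearest relative of Esyt1, fell where Esyt1 was high. It was at 134 ± 3.01 CPM in TAM CM against 201 ± 0.938 in M0 CM (log2 fold change -0.58, SE 0.04, edgeR adjusted p = 9.59e-20). Per length, Esyt1 was above Esyt2 in TAM CM, at 35.8 ± 0.554 against 14.7 ± 0.3295 RPKM, and below it in M0 CM, at 5.11 ± 0.0705 against 22.02 ± 0.103 RPKM. The other genes of ER contact sites were split, with 4 higher and 6 lower of 11 tested, among them the sterol carrier gene Gramd1b, at 61.3 ± 1.43 CPM in TAM CM against 20.2 ± 0.652 in M0 CM.

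Dpysl2, the CRMP gene other than Dpysl3 that could be tested, also fell, to 23.9 ± 2.49 CPM in TAM CM against 50.8 ± 1.95 in M0 CM (log2 fold change -1.08, SE 0.06, edgeR adjusted p = 8.00e-21). Per length the 2 genes were close in M0 CM, Dpysl3 at 9.06 ± 0.224 and Dpysl2 at 11.2 ± 0.431 RPKM, and far apart in TAM CM, at 67.45 ± 1.75 and 5.28 ± 0.552. Of 5 tested TMBIM genes 3 were higher and 1 lower than in M0 CM. Grina rose by 0.89 (SE 0.03) and Tmbim6, the BAX inhibitor gene, fell by 0.16 (SE 0.03) on the log2 scale, with edgeR adjusted p of 1.18e-28 and 2.35e-06. Tmbim4 rose by 0.19 (SE 0.05, edgeR adjusted p = 0.000945), a call lost with library sizes alone (0.103).

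The elastic fibre list went mostly down, with 12 of 16 tested genes lower in TAM CM and 3 higher, and a median log2 fold change of -0.74, while the median over all genes was 0.000864. Emilin1, an elastic fibre protein, was at 69.9 ± 2.57 CPM in TAM CM against 393 ± 6.78 in M0 CM. Loxl3, an enzyme that cross-links matrix proteins, was at 10.5 ± 0.933 against 82.2 ± 0.167, and Ltbp3, which holds latent TGF-beta in the matrix, at 86.0 ± 2.37 against 193 ± 3.28. Among the other fibulins Efemp2, the most abundant, fell to 26.7 ± 1.98 CPM in TAM CM against 69.5 ± 2.05 in M0 CM. Fbln1 fell to 2.57 ± 0.148 against 4.51 ± 0.399, and Efemp1 to 0.102 ± 0.176 against 0.624 ± 0.128. Fbln2 rose to 0.778 ± 0.344 against 0.0321 ± 0.0556. It averaged 0.0982 CPM in M1 CM and 0 in M2 CM, so it passed the filter through TAM CM. Its rise, counted in this list against M0 CM, M1 CM and M2 CM, is a description. The carbonic anhydrases had 2 higher and 3 lower of 6 tested. The membrane-bound Car12 rose to 161 ± 1.76 CPM in TAM CM against 75.5 ± 2.15 in M0 CM, and the hypoxia-linked Car9 fell to 3.72 ± 0.503 against 40.7 ± 4.41. In M1 CM, where Car6 rose, both fell relative to M0 CM, Car12 to 59.3 ± 4.22 CPM and Car9 to 15.2 ± 2.79 (edgeR adjusted p = 6.20e-09 and 1.22e-13).

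Thrombospondin repeat proteins, the class of Sspo, had 4 higher and 5 lower of 10, with Thbs1 at 17.9 ± 0.159 CPM in TAM CM against 172 ± 1.51 in M0 CM. The 4 include Thsd7a, which passed the filter through TAM CM, so that a rise was favoured in advance. Of 12 orphan and leukocyte receptors 3 could be tested. Gpr137b was higher, at 208 ± 1.41 CPM in TAM CM against 119.9 ± 1.41 in M0 CM, and Gpr35 lower, at 0.198 ± 0.0994 against 3.36 ± 0.532.

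In TAM CM against M1 CM, where 32.8% of all genes were higher and 34.4% lower, the elastic fibre list had 4 higher and 10 lower of 16, the ER contact site list 3 and 7 of 11, and the TMBIM list 0 and 3 of 5. The calcium pumps had 3 higher and 1 lower of 4, and the carbonic anhydrases 1 higher and 4 lower of 6. In TAM CM against M2 CM, with 34.3% of all genes higher and 34.1% lower, the elastic fibre list again had 4 higher and 10 lower, the ER contact site list 4 and 5, the TMBIM list 3 and 0, the calcium pumps 3 and 0, and the carbonic anhydrases 2 and 4. Dpysl2 was lower in TAM CM than in each of the other 3 media, where Dpysl3 was highest in TAM CM.

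**Figure D3:**
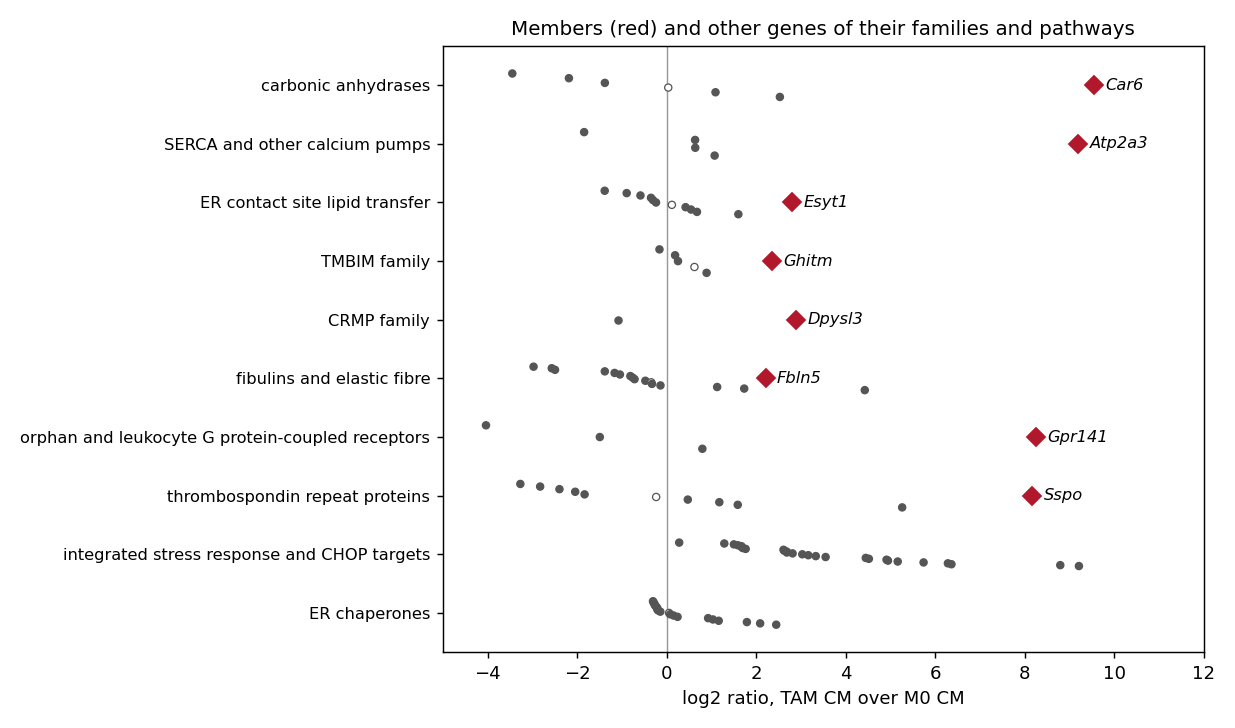
Log2 ratio of TAM CM over M0 CM (horizontal axis) for 8 of the members (red, named) and for the other tested genes of each list (grey, filled where the adjusted p was under 0.05, open where not). Fbln2, a low gene that passed the filter through TAM CM, lies right of Fbln5, and the 27 stress response genes all lie right of 0. The thrombospondin repeat gene Thsd7a also passed the filter through TAM CM.

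The list of integrated stress response and CHOP target genes behaved otherwise. Of 28 listed genes 27 were tested, and all 27 were higher in TAM CM than in M0 CM, with a median log2 fold change of 3.03. They include Adm2, at 0 CPM in M0 CM and 0.450 ± 0.0553 in M1 CM, for which a rise over M0 CM was the only difference that could show. Ddit3, the CHOP gene, was at 75.3 ± 1.65 CPM in TAM CM against 7.51 ± 0.801 in M0 CM, a 10.1-fold difference (edgeR adjusted p = 1.68e-17). Among those with the smallest p, Slc3a2, a chain of amino acid transporters, was at 1005 ± 20.7 against 123 ± 5.14 CPM, Asns, which makes asparagine, at 523 ± 13.3 against 85.7 ± 0.501, and Phgdh, which starts serine synthesis, at 1278 ± 38.4 against 376 ± 3.13. The liver hormone gene Fgf21 was at 78.3 ± 1.64 CPM in TAM CM against 0.172 ± 0.0761 in M0 CM. Against M1 CM 26 of 27 were higher in TAM CM (32.8% of all genes), and against M2 CM 27 of 27 (34.3%).

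Among the other media, 25 of the 27 stress response genes were higher in M1 CM than in M0 CM and 0 lower (median 1.54). M2 CM against M0 CM gave 18 higher and 2 lower (median 0.36), and M2 CM against M1 CM gave 0 higher and 25 lower (median -1.15). Ddit3 stood at 31.3 ± 5.49 CPM in M1 CM and 9.80 ± 0.886 in M2 CM. ER chaperone genes gave a different picture. In TAM CM against M0 CM 9 were higher and 9 lower of 19 (7 and 9 with library sizes alone), with Hspa5, the main ER chaperone, at 2849 ± 58.8 against 823 ± 19.1 CPM and Herpud1 at 286 ± 4.11 against 52.4 ± 2.59. In TAM CM 12 were higher and 1 lower than in M1 CM, and 6 higher and 11 lower than in M2 CM. M1 CM against M0 CM gave 3 higher and 12 lower, M2 CM against M0 CM 14 and 1, and M2 CM against M1 CM 15 and 2. The part of either programme in the levels of the 10 genes was not tested.

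Genes with the most similar profile were found by the mean absolute difference of mean-centred log2 CPM over the 12 libraries (prior count of 2), among genes with at least 2 CPM in the highest medium. The libraries share 4 media, so these are descriptions. Nearest to Ghitm were Ets2, Slc1a5 and Phf10, at differences of 0.0757, 0.0832 and 0.0916 log2 units. Slc1a5, a glutamine transporter, had 226 CPM in TAM CM, 86.2 with M1 CM, 52.5 with M2 CM and 42.3 with M0 CM. Nearest to Esyt1 were the ER stress gene Herpud1 (0.115) and the amino acid transporter genes Slc7a5 (0.115) and Slc3a2 (0.141), and nearest to Dpysl3 were Atf5 (0.108), Ndrg1 (0.121) and Otub2 (0.121). Atf5, itself a target of ATF4 and CHOP, had 266 CPM in TAM CM, 99.9 with M1 CM, 33.3 with M2 CM and 29.8 with M0 CM. For Fbln5 they were Klhl33, Erfe and Fam129a at 0.178, 0.242 and 0.244, and Klhl33 was likewise lowest in M2 CM, at 0.579 CPM beside 1.21 in M0 CM.

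Most matches of the low genes were other genes with little expression outside TAM CM. Their distances depend on the prior count. Cox6a2, a muscle form of a respiratory chain subunit, was nearest to both Car6 (0.460) and U90926 (1.00), with 24.2 CPM in TAM CM, 1.90 with M1 CM, 0.0635 with M2 CM and no counts with M0 CM. P2rx3, an ATP-gated channel, and Fgf21 came next for U90926. Cd74 and Csn3 were the first 2 for both Als2cl and Sspo, and Elmo1 and Cd74 for Atp2a3. The next match of both Atp2a3 (0.422) and Sspo (0.360) was Cdsn, at 247 CPM in TAM CM, 13.3 with M1 CM, 2.05 with M2 CM and 3.23 with M0 CM. For Gpr141 they were the cytokine gene Il23a (0.352), the peptide hormone gene Ostn (0.359) and Exph5 (0.392), of which Ostn had 2.52 CPM in TAM CM and no counts in the other 3 media. Within the 10 genes, U90926 was closer to Car6 (0.700) than to any gene outside them.

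The nearest expressed genes on the chromosome were read for each of the 10, 21 genes in all with 1 that overlaps Esyt1. In TAM CM against M0 CM 9 of the 21 were higher, 8 lower and 4 not called. Of all genes 35.1% were higher and 34.9% lower, so these counts are no result about the neighbours. Elmo1 lies 266338 bases from Gpr141 on the other strand. It encodes an activator of Rac in cell migration and the uptake of dead cells, and was at 23.2 ± 1.17 CPM in TAM CM, 1.10 ± 0.339 with M1 CM, 0.0626 ± 0.0543 with M2 CM and 0.198 ± 0.0861 with M0 CM (TAM CM against M0 CM, log2 fold change 6.80, SE 0.22, edgeR adjusted p = 4.69e-31). On the other side of Gpr141, Stard3nl differed by 0.47 (SE 0.07). Ppef2, 11270 bases from U90926, was at 1.63 ± 0.326 CPM in TAM CM against 0.255 ± 0.114 in M0 CM (edgeR adjusted p = 1.34e-07), while Uso1, 7094 bases away on its other side, was at 274 ± 3.52 against 250.1 ± 5.54, a call lost with library sizes alone (0.368).

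The neighbours of Car6, Atp2a3 and Sspo were lower or not called. Zzef1 and Camkk1, on either side of Atp2a3, had log2 fold changes of -1.41 (SE 0.04) and -1.09 (SE 0.11). Next to Als2cl, Ccdc12 was lower and Ccrl2 was higher at 0.180 ± 0.125 CPM in TAM CM against 0.0166 ± 0.0287 in M0 CM, a call lost without the M0 CM library numbered 1 (edgeR adjusted p = 0.0506) or the TAM CM library numbered 3 (0.0752). Gm29585, an antisense gene that overlaps Esyt1, had 134 counts in TAM CM and 23 in M0 CM. Since the sources give no strand setting for the counting, reads of such a pair cannot be told apart. Esyt1 had 15631 and 2389 counts. Genes that overlap Als2cl or Gpr141 had at most 5 counts in TAM CM.

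**Figure D4:**
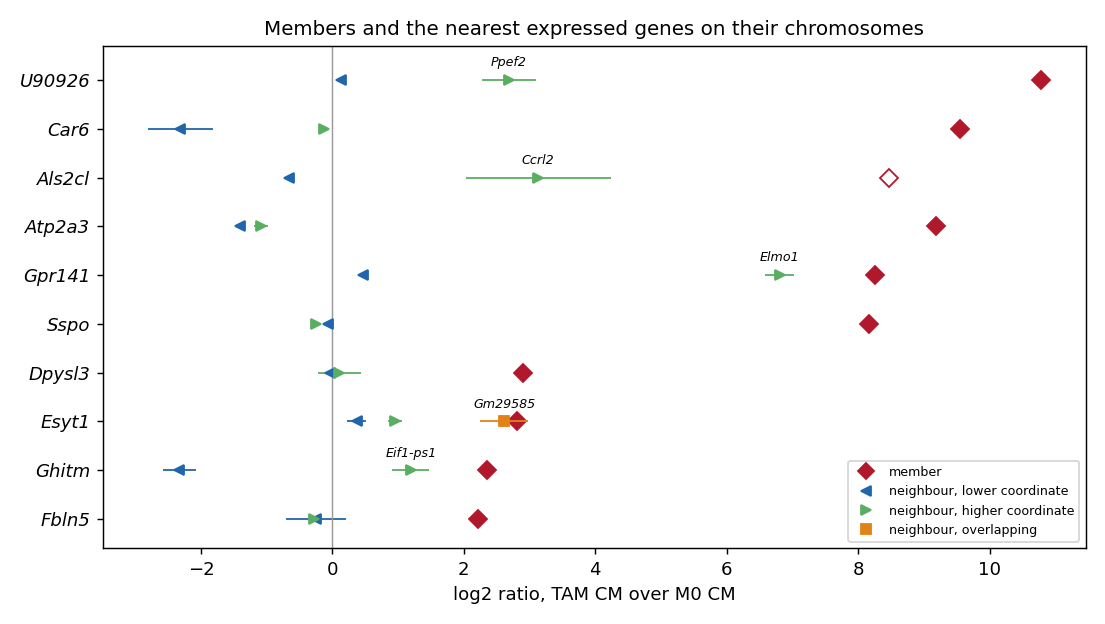
Log2 ratio of TAM CM over M0 CM (horizontal axis) for each of the 10 genes (red diamonds, the open one a lower bound) and for the nearest expressed genes on either side or overlapping, with SE bars. Neighbours at least 2-fold higher with an adjusted p under 0.05 are named, 5 in all. Elmo1 at 6.80, beside Gpr141 at 8.25, is the neighbour farthest to the right. Of the 21 neighbours 8 were called lower, beside 34.9% of all genes.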

How the data were processed

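The deposited file holds raw read counts per Ensembl gene for 12 libraries, with no scaling by the authors. The submitters' processing notes name HISAT2 2.0 and mm10. The sources used here give no counting tool, annotation release or strand setting. Groups were taken from the titles. Symbols, coordinates and exon lengths are from GENCODE M21 (GRCm38), which matched 55227 of 55487 genes and may not be the authors' release. Genes were kept by filterByExpr (14509, with 0.0815% of counts removed), scaled by TMM and fitted with edgeR 4.0.16 (glmQLFit, robust, a mean per medium) in R 4.3.3. P-values were adjusted over all genes tested, and each SE is the log2 fold change divided by the root of its F statistic. Intervals and floors (3 counts over a group) cover counting error only.

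The 10 genes, the lists of relatives and the tests were chosen with earlier results of these data known. The 10 genes, and the genes the lists, the profile match and the nearest position gave, are the genes named, with up to 4 genes of smallest p per list. Ddit3, Adm2, Fbln1, Fbln2, Efemp1, Efemp2 and the list genes in the closing observations were added after their values were seen. DESeq2 1.42.0 was an alternative, and figures used matplotlib 3.10.9. In simulated counts for M1 CM against M0 CM, run on 13883 genes, the test recovered 35 of 50 genes changed 1.25-fold, 47 of 50 changed 1.5-fold and all 50 changed 2-fold or 4-fold, with 15 calls among 13683 unchanged genes. One of the gene lists is not reported here. The promoter table gave no window for Dpysl3, which is not analysed here at that level.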

Additional observations from a re-analysis of the deposited data

How the results depend on the processing

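Each count of genes called in the 6 comparisons stayed within 1.5 times its value under 12 alternatives. With 1 library left out, M1 CM against M0 CM gave 7117 to 7414 genes in place of 7742, M2 CM against M0 CM 4999 to 5134 in place of 5723, and TAM CM against M0 CM 9801 to 9834 in place of 10156. Library sizes with no scaling factors moved the split, to 3219 higher and 4626 lower in place of 4023 and 3719 in M1 CM against M0 CM, to 2201 and 3653 in place of 3042 and 2681 in M2 CM against M0 CM, and to 4300 and 5891 in place of 5089 and 5067 in TAM CM against M0 CM. The 9 of 10 genes called in M1 CM against M0 CM stayed 9 with each library left out and were 7 in a fit of those 2 media alone, where Als2cl, Gpr141 and Sspo did not pass the filter. The count in M2 CM against M1 CM was also 7 in such a fit. In M2 CM against M0 CM the 3 calls ranged from 2 to 4.

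Deviations of same-numbered libraries of different media correlated between -0.0289 and 0.0507 (median 0.015). Those of differently numbered libraries correlated between -0.0516 and 0.0515 (median -0.00771). Of the 12 libraries 3 correlated best with their own number in all other media. Such small correlations gave no clear pairing by number, but they cannot show that no libraries shared a batch. With the replicate block the counts were 7806, 5821 and 8219 genes for M1 CM against M0 CM, M2 CM against M0 CM and M2 CM against M1 CM, and the calls of the 10 genes stayed at 9, 3 and 9. No called direction of the 10 genes reversed. Uncalled differences of M2 CM from M0 CM turned sign for Atp2a3 (-0.75, and 1.86 without M0 CM library 1) and for U90926 (0.04, and -0.34 to -0.01 in 3 alternatives). For the 30 fitted TAM CM ratios, 31 values under an alternative moved by more than the spread between replicates and 329 did not. The Atp2a3 log2 ratio to M0 CM, 8.93, was 11.54 without the M0 CM library numbered 1, which holds its only 2 counts there. Of the list counts 461 stayed and 7 moved, 6 of them for the receptors in TAM CM against M1 CM. At this depth 0 counts over a medium allow about 0.05 CPM.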

Other observations

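Thsd7a, a thrombospondin repeat gene like Sspo, was at 1.40 ± 0.470 CPM in TAM CM against 0.0332 ± 0.0574 in M0 CM. It averaged 0 CPM in M1 CM and in M2 CM, so it passed the filter through TAM CM. Its call is among the 4 higher of the thrombospondin repeat genes above, and its p-value is left out. Among markers of nerve cells, read because Dpysl3 and Sspo are known from brain, Tubb3 was at 31.8 CPM in TAM CM, 29.1 with M1 CM, 5.99 with M2 CM and 3.72 with M0 CM. Map2 was lowest in TAM CM, at 37.6 CPM in TAM CM, 39.7 with M1 CM, 48.5 with M2 CM and 75.0 with M0 CM. Nefl and Nefm had no counts, and the sum of the 10 markers was 65.8 to 72.4 CPM in TAM CM, 69.0 to 74.4 in M1 CM, 59.7 to 66.0 in M2 CM and 81.4 to 84.1 in M0 CM.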
